A study of Mus musculus with 4 samples.

Results

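Tuft cells are rare chemosensory epithelial cells that carry a taste-like signalling cascade. In the injured pancreas they can arise from acinar cells, the digestive enzyme-producing cells. Here 5 transcription factors of the tuft lineage, Pou2f3, Gfi1b, Spib, Hmx2 and Hmx3, were followed across the cell types of a mouse single-cell RNA dataset. They are 5 of the 32288 features counted, were picked by name, and all 5 were detected. Pou2f3 is a POU-homeodomain factor without which tuft cells do not form. Gfi1b is a zinc-finger repressor best known from red cell and platelet precursors, where it works with the histone demethylase Kdm1a. Spib is an ETS-family factor known from B cells, plasmacytoid dendritic cells and intestinal M cells. Hmx2 and Hmx3 are neighbouring, closely related homeobox genes known from the inner ear and hypothalamus.

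All 4 mice carried Ptf1aCre-ERTM;ROSAYFP/+ on a background backcrossed into CD-1, so that tamoxifen switched on a yellow fluorescent protein (EYFP) in cells expressing Ptf1a, which in the adult pancreas are acinar. At 10 weeks of age injury was started with caerulein, a secretagogue that causes pancreatitis, and was continued for 2 weeks in 2 of the mice and for 4 weeks in the other 2, with a recovery period. No uninjured mice are among these samples, and no label says whether the mice of a group were processed together. EYFP+ cells were sorted and each mouse gave 1 library of 10x Genomics 3' single-cell RNA. Of 21140 cells, 13362 carried a deposited cell type, and 2586 tuft and enteroendocrine (hormone-producing) cells carried a finer subtype.

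Between 2814 and 3974 typed cells came from each mouse. Median depths were 20807 and 20586 unique molecular identifiers (UMIs, counted transcripts) at 2 weeks, and 15067 and 13464 at 4 weeks. Tuft cells stood apart in number in the second 2-week mouse, with 665 of the 1280, against 83, 212 and 320 in the other mice. The subtypes were MucinDuctalProgenitor (156 cells, of which 118 came from that mouse), Tuft-1 (210, of which 166), Tuft-2 (457, of which 269) and Tuft-3 (494, of which 181). The first 2-week mouse held only 5 progenitors and 6 Tuft-1 cells, so means over mice for these subtypes use the other 3 mice (n = 3), and n = 4 elsewhere. The tuft labels were checked against markers, and 30 tuft effector genes such as Trpm5 and Dclk1 summed to 32258 to 36789 CPM (UMIs scaled to a common library total) in Tuft-2 and to 503 to 915 CPM in Acinar cells. Enteroendocrine markers summed to 3295 and 3969 CPM in Tuft-2 of the first 2-week and first 4-week mouse, mostly the hormone Ghrl at 3011 and 3707 CPM, and to 211 and 185 CPM in the second mice. They summed to 44001 CPM or more in EEC cells, and their part in the results was not tested. More than 1 library held 67 of the cell barcodes, of which 23 belong to typed cells.

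On mm10 (GENCODE vM21), Pou2f3 lies at chr9:43123939-43210369 on the minus strand with 13 exons, Gfi1b at chr2:28609450-28621982 on the minus strand with 7 exons, and Spib at chr7:44525993-44532071 on the minus strand with 6 exons. Hmx3 (chr7:131542867-131544925) and Hmx2 (chr7:131548773-131558014) lie on the plus strand, each with 2 exons and 3847 bases apart. Both sit inside the span of Fgfr2, which runs on the other strand, and overlap 0 of its exons. The windows from 250 bases before to 50 after the start site, from RefSeq on GRCm38.p6, are shown for the members with an entry because their transcripts appear in the same cells (below). Capitals mark letters that match a motif searched on both strands.

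Spib, chr7:44532022-44532321, minus strand: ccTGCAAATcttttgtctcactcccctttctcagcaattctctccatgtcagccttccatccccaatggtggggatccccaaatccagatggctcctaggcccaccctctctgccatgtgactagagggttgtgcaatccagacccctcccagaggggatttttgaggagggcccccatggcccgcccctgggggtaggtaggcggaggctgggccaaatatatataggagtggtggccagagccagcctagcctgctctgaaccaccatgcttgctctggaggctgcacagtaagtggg

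Gfi1b, chr2:28621933-28622232, minus strand: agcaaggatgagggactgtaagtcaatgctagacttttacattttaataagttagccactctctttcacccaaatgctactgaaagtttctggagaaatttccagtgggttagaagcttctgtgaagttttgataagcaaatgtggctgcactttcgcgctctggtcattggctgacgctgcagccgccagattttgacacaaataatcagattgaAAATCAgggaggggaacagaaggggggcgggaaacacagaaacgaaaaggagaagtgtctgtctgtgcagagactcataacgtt

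Hmx3, chr7:131542713-131543012, plus strand: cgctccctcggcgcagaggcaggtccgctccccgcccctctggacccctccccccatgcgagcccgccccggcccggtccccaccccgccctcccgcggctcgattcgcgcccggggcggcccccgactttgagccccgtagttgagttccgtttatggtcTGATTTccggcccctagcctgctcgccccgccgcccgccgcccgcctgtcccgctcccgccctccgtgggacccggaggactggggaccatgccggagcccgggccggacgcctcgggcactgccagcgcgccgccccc

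Hmx2, chr7:131548507-131548806, plus strand: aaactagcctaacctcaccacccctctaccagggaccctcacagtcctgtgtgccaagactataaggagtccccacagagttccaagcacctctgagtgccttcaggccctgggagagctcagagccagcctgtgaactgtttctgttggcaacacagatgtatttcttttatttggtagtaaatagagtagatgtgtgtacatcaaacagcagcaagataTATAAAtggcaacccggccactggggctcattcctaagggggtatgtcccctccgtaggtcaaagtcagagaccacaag

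The octamer ATGCAAAT, the classical POU-factor element, was found in none of these windows and in 1.74% of 32851 promoters of the same length. Its last 7 bases, TGCAAAT, were found 248 bases before the Spib start, and 4.02% of all promoters hold them. The GFI-family core AAATCA lies 34 bases before the Gfi1b start and, on the opposite strand, 89 bases before the Hmx3 start. This short motif is common, at 14.0% of promoters. A TATA box (TATAAA, 13.6% of promoters) lies 29 bases before the Hmx2 start. The ETS element GAGGAAGT (3.2% of promoters) and the HMX core CAATTAA (2.58%) were not in these windows. A further Hmx2 entry at chr7:131554043-131554342 held no match. G+C content ran from 44.3% in Gfi1b to 78% in Hmx3, with a median of 52.67% over all promoters. These matches are letters in a window, not measured binding.

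Transcripts of all 5 genes lay mainly in tuft cells. Tuft cells held 5148 of the 5937 Pou2f3 UMIs of typed cells (86.7%), 1203 of 1333 for Gfi1b (90.2%), 10448 of 11201 for Spib (93.3%), 7112 of 7463 for Hmx2 (95.3%) and 6784 of 7080 for Hmx3 (95.8%). Pou2f3 had the largest part in the type labelled Tuft/EEC.Progenitor, 5.47% of its UMIs, against 3.38% for Gfi1b, 0.777% for Spib and 0.402% for Hmx2. The types divide these same cells by expression, so levels across types and subtypes are a description and carry no test. Counts come from transcript ends and are not scaled by length, so each gene is compared with itself across cells, not with the other members.

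Pou2f3 was the member already present at a substantial level in the progenitors. Its MucinDuctalProgenitor level was 41.7 and 90.1 CPM at 2 weeks and 89.4 and 82.9 CPM at 4 weeks. The low value comes from 5 cells. In Tuft-1 it was 217, 208, 254 and 195 CPM in the same order of mice, above the progenitors of every mouse. Tuft-2 (214, 241, 233 and 226 CPM) and Tuft-3 (242, 232, 208 and 198 CPM) overlapped with Tuft-1. The means were 87.5 ± 3.96 CPM in progenitors (SD, n = 3), 219 ± 31.2 in Tuft-1 (n = 3), 228 ± 11.5 in Tuft-2 (n = 4) and 220 ± 20.6 in Tuft-3 (n = 4), so the 3 tuft subtypes differed by less than the spread between mice. The mean in Tuft-1 was 2.50-fold that in progenitors (log2 1.32, SD 0.17 over the ratios in 3 mice).

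Gfi1b, too, had UMIs in the progenitors, at a lower share of its tuft level than Pou2f3. Its progenitor level was 0, 12.2, 10.5 and 9.95 CPM, and the 0 comes from the mouse with 5 progenitors. In Tuft-1 it was 61.1, 37.5, 27.6 and 53.8 CPM, and the mean was 3.64-fold that in progenitors (log2 1.86, SD 0.55 over the ratios in 3 mice). Levels were 46.6, 51.3, 56.6 and 51.6 CPM in Tuft-2 and 52.0, 48.0, 62.8 and 68.1 CPM in Tuft-3. The order by mean was Tuft-1 (39.6 ± 13.2), Tuft-2 (51.5 ± 4.08) and Tuft-3 (57.7 ± 9.32), and neighbours in it differed by less than the larger of their SDs.

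Spib was low in the progenitors against its tuft level, and its progenitor UMIs came almost all from 1 mouse. Progenitor levels were 0, 28.1, 0 and 3.32 CPM, and the value of 3.32 rests on 1 UMI. In Tuft-1 Spib stood at 305, 322, 254 and 254 CPM. The second 2-week mouse, which held most progenitors, had 11.4-fold more Spib in Tuft-1 than in progenitors, and the first 4-week mouse at least 16.1-fold more, taken against a floor of 3 counts in that library. A Spib count of 0 in its 13 progenitors allows a share of positive cells of up to 23.1%. Spib was higher again in Tuft-2 (463, 462, 461 and 477 CPM), 1.69-fold over Tuft-1 by the means (log2 0.76, SD 0.21 over 3 mice), and the 2 subtypes did not overlap. Tuft-3 (531, 452, 552 and 544 CPM) overlapped with Tuft-2.

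Hmx2 was the latest of the 5. It was at 0, 6.25, 0 and 13.3 CPM in the progenitors and at 129, 113, 133 and 123 CPM in Tuft-1. Tuft-1 was 18.1-fold above progenitors in the second 2-week mouse, 9.27-fold in the second 4-week mouse and at least 8.41-fold in the first 4-week mouse. In Tuft-2 Hmx2 was at 330, 335, 292 and 418 CPM, a further 2.83-fold over Tuft-1 by the means (log2 1.501, SD 0.32 over 3 mice), and every Tuft-2 value lay above every Tuft-1 value. The same step was 1.07-fold for Pou2f3, 1.34-fold for Gfi1b, 1.69-fold for Spib and 1.30-fold for Hmx3. Tuft-3 (369, 348, 333 and 404 CPM) overlapped with Tuft-2.

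Its neighbour Hmx3 reached most of its level 1 subtype earlier. Progenitors had 0, 6.88, 0 and 39.8 CPM, and Tuft-1 had 170, 191, 227 and 335 CPM. Tuft-1 was 27.8-fold above progenitors in the second 2-week mouse, 8.43-fold in the second 4-week mouse and at least 14.4-fold in the first 4-week mouse. Tuft-2 (263, 300.4, 310.0 and 372 CPM) and Tuft-3 (335, 289.9, 354 and 339.9 CPM) overlapped with Tuft-1 and with each other across mice. Within each mouse Hmx3 was higher in Tuft-2 than in Tuft-1, by 1.55, 1.57, 1.37 and 1.11-fold, while Tuft-3 was above Tuft-2 in 2 of the 4 mice. In Tuft-1 Hmx3 was thus at 76.2% of its own highest subtype mean, whereas Hmx2 was at 33.9%.

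Set against each gene's own highest subtype mean, the progenitors held 38.3% for Pou2f3, 18.9% for Gfi1b, 4.72% for Hmx3, 2.02% for Spib and 1.79% for Hmx2. The order of the last 3 differed between mice: in the second 2-week mouse Spib was at 6.09%, Hmx3 at 2.29% and Hmx2 at 1.80%, and in the second 4-week mouse Hmx3 was at 10.7%, from 12 UMIs in 20 cells. In Tuft-1 the shares were 95.9% for Pou2f3, 76.2% for Hmx3, 68.6% for Gfi1b, 53.2% for Spib and 33.9% for Hmx2. The order of Hmx3, Gfi1b and Spib there differed between mice too. In the second 2-week mouse Gfi1b was at 73.1%, Spib at 69.7% and Hmx3 at 63.7% of that mouse's maximum. By mouse, Hmx3 was at 50.7% and 63.7% at 2 weeks and at 64.0% and 90.2% at 4 weeks. With onset taken as the first subtype at 50% of a gene's own maximum, Pou2f3, Gfi1b, Hmx3 and Spib had their onset in Tuft-1 and Hmx2 had its onset in Tuft-2. In each mouse on its own, Tuft-1 Hmx2 stayed under that mark, at 34.98%, 32.6%, 39.9% and 29.4% of that mouse's maximum. Spib lay near the mark, and in both 4-week mice it lay below it in Tuft-1, at 46.0% and 46.6%. Without the second 2-week mouse, Spib had its onset in Tuft-2 by the means. Gfi1b lay below it in the first 4-week mouse, at 44.0%. The plot of levels along the subtypes shows these positions.

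**Figure D1:**
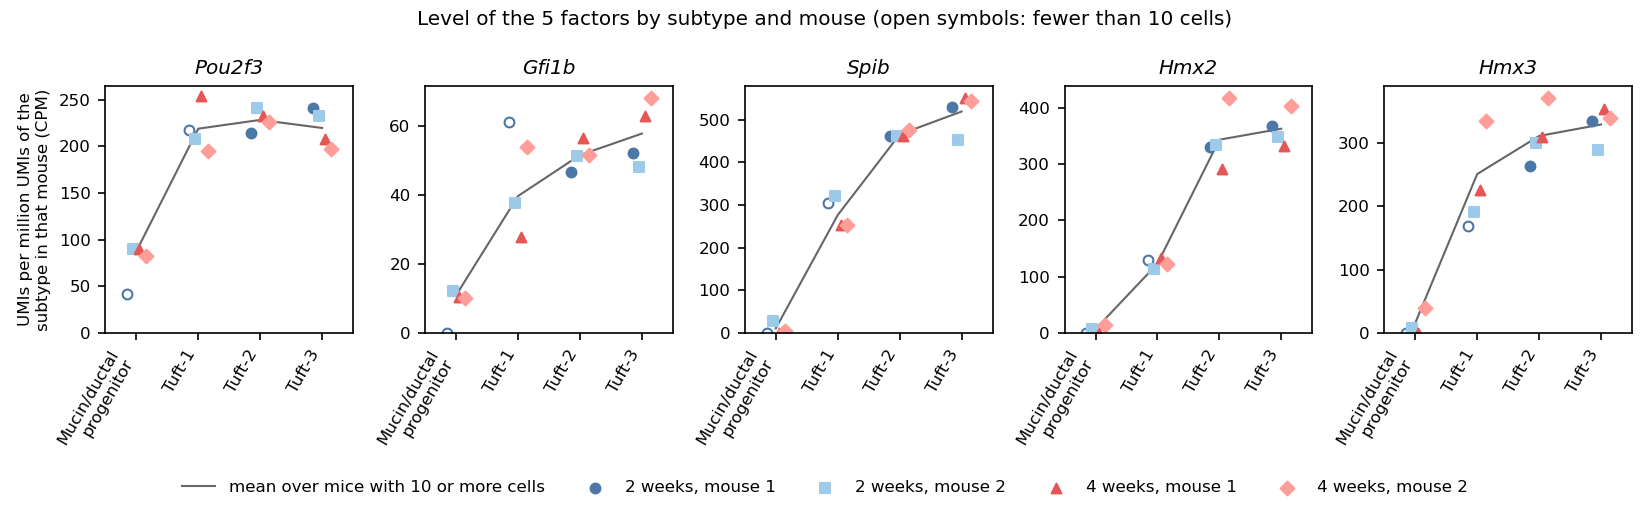
CPM of each of the 5 genes (1 panel each, vertical axis in CPM from summed counts) in MucinDuctalProgenitor, Tuft-1, Tuft-2 and Tuft-3, with 1 marker per mouse and a line for the mean over mice with at least 10 cells. Pou2f3 is near its plateau in Tuft-1, at a mean of 219 CPM, while Hmx2 goes from 123 CPM in Tuft-1 to 344 CPM in Tuft-2.

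Progenitors come from 2 deposited label tables that do not fully match: 148 of the 156 are typed Tuft/EEC.Progenitor in the broader table and 8 are typed Tuft. Leaving out those 8, a choice made after the data were seen, moved the ratio of the Tuft-1 to the progenitor mean from 16.1-fold to 31.5-fold for Hmx3 and from 26.4-fold to 30.6-fold for Spib. For Pou2f3 (2.64-fold), Gfi1b (3.399-fold) and Hmx2 (19.4-fold, from 18.9-fold) it moved less. Leaving out 1 mouse moved these ratios further, to 153-fold for Spib without the second 2-week mouse, and to 60.8-fold for Hmx3 and 39.3-fold for Hmx2 without the second 4-week mouse, so their size rests on few UMIs in single mice.

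Depth differs between subtypes and mice, so the share of cells with a UMI was also computed after thinning each cell to 2500 UMIs and leaving out shallower cells. These were 2 of the 156 progenitors, 0 Tuft-1, 0 Tuft-2 and 1 Tuft-3 cell, 72 of 3698 Acinar cells, and 702 of 1955 Acinar/MucinDuctal cells. On this scale Pou2f3 was found in 18.3% of progenitors, and in 39.4%, 42.6% and 42.3% of Tuft-1, Tuft-2 and Tuft-3 cells. Hmx2 was found in 1.15% of progenitors and in 22.6%, 55.7% and 58.0% of the tuft subtypes. Hmx3 was found in 3.37%, then 44.1%, 52.7% and 53.8%, Spib in 1.84%, then 48.0%, 68.7% and 71.6%, and Gfi1b in 2.48%, then 9.55%, 11.9% and 14.2%. In percentage points the largest step was from progenitors to Tuft-1 for Pou2f3, Gfi1b, Spib and Hmx3, and from Tuft-1 to Tuft-2 for Hmx2. As a ratio, the step from progenitors to Tuft-1 was the largest for Hmx2 too. In Acinar cells, a type that should lack these factors, the thinned shares were 0.233% for Pou2f3, 0.0594% for Gfi1b, 0.322% for Spib, 0.114% for Hmx2 and 0.0575% for Hmx3. The mean progenitor shares lie above these, but only Pou2f3 and Gfi1b were above them in each of the 3 mice, since the 13 progenitors of the first 4-week mouse had no UMI of Spib, Hmx2 or Hmx3. Over mice the progenitor shares ran from 0 to 5.11% for Spib, 0 to 2.76% for Hmx2 and 0 to 9.19% for Hmx3. They overlapped with those of Acinar/MucinDuctal cells, which ran from 1.88 to 5.77%, 0.221 to 4.22% and 0 to 3.70%, so the progenitor shares of these 3 genes do not stand clear of cells outside the series.

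**Figure D2:**
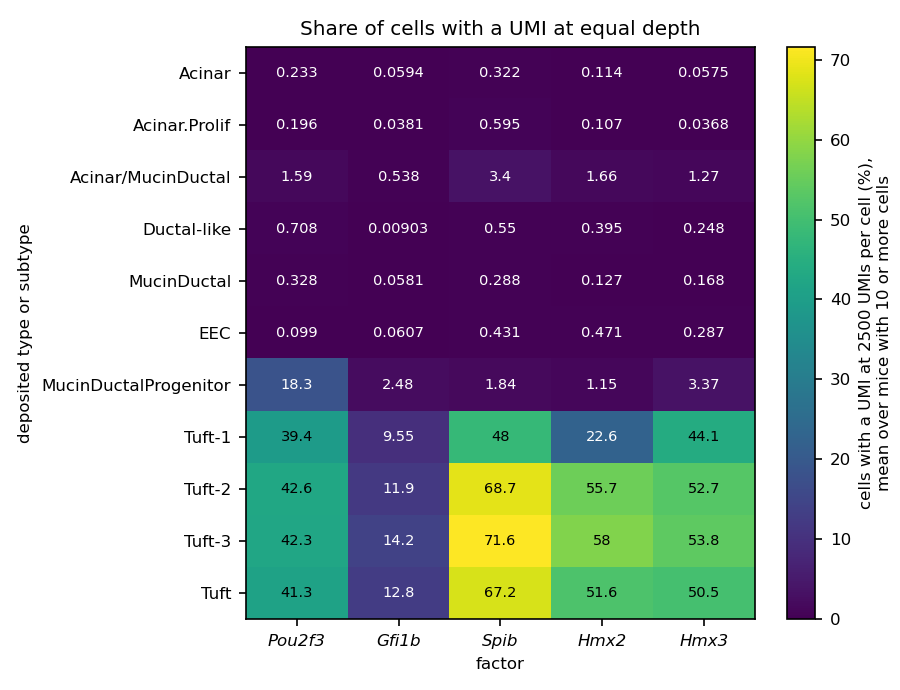
Mean over mice of the percentage of cells with at least 1 UMI after thinning to 2500 UMIs per cell, for the 5 genes (columns) over cell types and subtypes (rows). The tuft subtypes hold high values for every gene, and of the rows other than Tuft and its subtypes MucinDuctalProgenitor has the highest Pou2f3 value, 18.3%.

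Without thinning, Pou2f3 was detected in 104 of 156 progenitors, 192 of 210 Tuft-1, 429 of 457 Tuft-2 and 466 of 494 Tuft-3 cells. Gfi1b was detected in 32, 93, 262 and 305 of these cells. The homeobox genes were rare in progenitors, with Hmx2 in 12 and Hmx3 in 15 cells, and near-universal in Tuft-2, with 447 and 449 of 457. Spib went from 33 progenitors to 193 Tuft-1, 456 Tuft-2 and 492 Tuft-3 cells.

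Single cells showed in which combinations the factors were found. Of the 156 progenitors, 42 had none of the 5, 60 had exactly 1, 33 had 2 and 21 had 3 or more. Among the 60 cells with 1 factor, it was Pou2f3 in 51, Gfi1b in 5, Spib in 2, and Hmx2 and Hmx3 in 1 each. The 21 progenitors with 3 or more came from the second 2-week mouse (18) and the second 4-week mouse (3), and held 38.2% of all UMIs of the 5 genes in progenitors. Their median depth was 41000 UMIs against 18833 over all progenitors, and the part of depth or of doublets in these cells was not tested. In Tuft-1, 181 of 210 cells (86.2%) had 3 or more factors and 26.7% had all 5. The cells with 3 or more were 454 of 457 in Tuft-2 and 489 of 494 in Tuft-3, and those with all 5 were 53.2% and 56.3%. Of all 1280 Tuft cells, 3 had none.

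**Figure D3:**
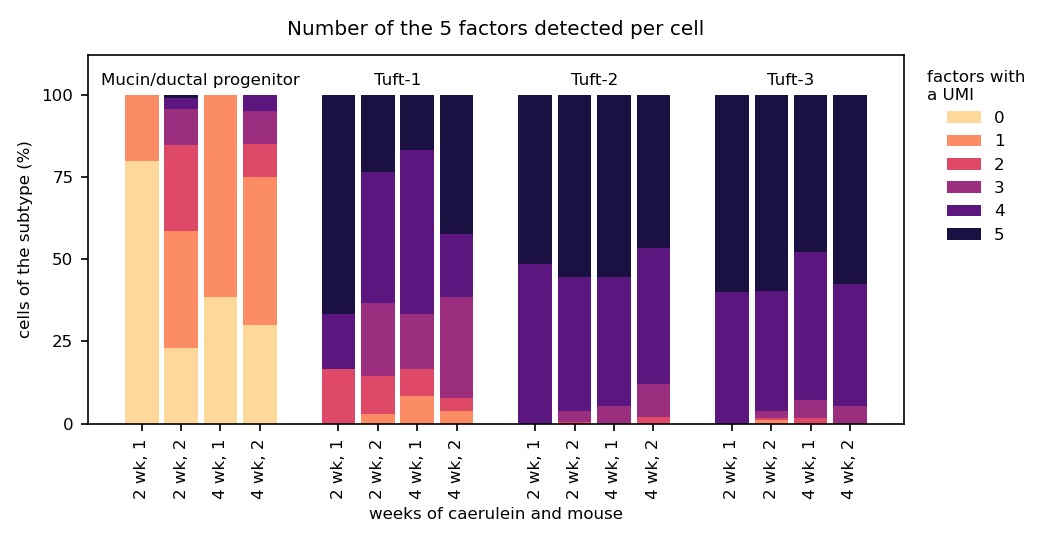
Percentage of cells with 0 to 5 of the 5 genes detected (at least 1 UMI, no thinning) in each subtype along the tuft series. Cells with 3 or more go from 13.5% of progenitors to 86.2% of Tuft-1 and 99.3% of Tuft-2 cells.

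Detection of Hmx2 and Hmx3 in the same cells also differed along the series. In Tuft-1 both were found in 123 of 210 cells, Hmx3 alone in 52, Hmx2 alone in 8 and neither in 27. In all, Hmx2 was detected in 131 and Hmx3 in 175 of these cells. The surplus of cells with Hmx3 alone restates that difference in detection. The cells with Hmx3 alone numbered 0, 41, 5 and 6 in the 4 mice and those with Hmx2 alone 1, 7, 0 and 0. In Tuft-2 the single-gene cells were few and even, with 7 for Hmx2 and 9 for Hmx3, and in Tuft-3 they were 15 and 9. Among progenitors with Spib, 30 of 33 also had Pou2f3, whereas 74 had Pou2f3 without Spib. Of the 30 cells with both, 29 came from the second 2-week mouse. In that mouse Pou2f3 was found in 85 of 118 progenitors. Pou2f3 and Spib were found together in 24.6% of them, against 19.5% if the 2 were independent. Over all mice, both were found together in 28.8% of the Pou2f3-positive progenitors. These counts are of detection, and a gene with no UMI in a cell may still be expressed there.

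The progenitors also hold regulators of other steps and fates, and the pairs given were chosen after values were seen. Shares are without thinning and pool cells of all mice, and the part of depth or of doublets in them was not tested. Neurog3, the factor that starts the enteroendocrine program, was found in 20 of 156 progenitors, 9 of them with Pou2f3, all 9 in the second 2-week mouse. That is 8.65% of Pou2f3-positive and 21.2% of Pou2f3-negative progenitors. In the subtype EEC-Progenitor (Neurog3+), 11 of 391 cells had Pou2f3, and 2 of these 11 had a Neurog3 UMI, against 87.1% of the cells without Pou2f3. The gene 1810046K07Rik, taken here from background knowledge as coding for a co-activator of Pou2f3, was found in 14 of the 33 progenitors with Spib (42.4%) and in 4.07% of those without, and 13 of these 14 cells came from the second 2-week mouse. It was found in 163 of 210 Tuft-1 cells and in 0 of 391 EEC-Progenitor cells, which allows a share of cells with a UMI, at this depth, of up to 0.767%.

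Outside the tuft series the 5 genes were far below their tuft levels. In Acinar cells no member exceeded 3.28 CPM in any mouse, and in the pooled EEC type none exceeded 5.00 CPM. In EEC-Progenitor cells Pou2f3 was at 0, 4.13, 1.98 and 5.11 CPM. Acinar/MucinDuctal cells, whose label joins both names, had higher values in both second mice, for example Spib at 14.0 CPM at 2 weeks and 17.2 CPM at 4 weeks, and at most 6.43 CPM for any member in the first mice. The median depth of this type was 3387, 19556, 2659 and 3555 UMIs in the 4 mice. Delta cells of the first 4-week mouse had Pou2f3 at 22.2 CPM (7 UMIs) and Spib at 28.5 CPM (9 UMIs), of which 2 cells typed Tuft in the broader label table held 5 and 5 UMIs. Ppy+ cells, which make pancreatic polypeptide, had Spib at 0, 22.6, 20.7 and 0 CPM and Hmx2 at 0, 15.8, 17.6 and 4.12 CPM. In the second 2-week mouse 9 of 10 Spib and 7 of 7 Hmx2 UMIs lay in 1 cell typed Tuft, and in the first 4-week mouse 10 of 13 and 5 of 11 did.

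Part of these UMIs came from few cells that held 3 or more of the factors. There were 31 such cells among 1955 Acinar/MucinDuctal cells (20 and 11 in the second mice, 0 in the others), 23 among 3983 MucinDuctal, 5 among 3698 Acinar, 6 among 139 Ductal-like and 0 among 894 Acinar.Prolif cells. Within mice their median depth in Acinar/MucinDuctal was 63018.5 UMIs against 19556 for the whole type in the second 2-week mouse, and 9267 against 3555 in the second 4-week mouse. In MucinDuctal of the second 2-week mouse it was 68512 against 21810. A median of 20 tuft effectors was detected in the Acinar/MucinDuctal cells with 3 or more factors, against 4 in the other cells, while the median of acinar enzymes was 176035 CPM in them and 200408 CPM in the other cells, and that of mucin and ductal genes 15918 against 28294 CPM. The MucinDuctal cells with 3 or more factors had mucin and ductal genes at a median of 18609 CPM, against 56708 CPM in the other MucinDuctal cells, and enzymes at 4638 against 12987 CPM. The 5 Acinar cells held a median of 21 effectors against 3 in the other Acinar cells, and enzymes at 525324 CPM against 507837. These medians of effectors, enzymes and mucin and ductal genes pool all mice, and the groups compared hold unlike mixes of mice. Their pooled depths differ too, in Acinar/MucinDuctal at a median of 39300 against 3581 UMIs. Without the cells with 3 or more factors, Spib in Acinar/MucinDuctal cells was at 5.73 CPM in the second 2-week mouse and 15.01 CPM in the second 4-week mouse. No doublet caller was run, and whether these cells are 2 cells in 1 droplet was not tested.

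Other listed tuft regulators had their own positions along the series. Of 16 with at least 5 CPM in some subtype, 10 were at 50% or more of their maximum already in progenitors, 4 first in Tuft-1, 1 in Tuft-2 and 1 in Tuft-3. Sox4, a factor of immature epithelium, was highest in progenitors (mean 4012 CPM) and lower at each step (1434, 382 and 258 CPM). Hes1, a Notch target, went from 83.6 CPM in progenitors to 4.3 CPM in Tuft-1. Ascl2, Myb and Zfhx3 were present throughout, with Ascl2 at 149.6 CPM in progenitors and 139 CPM in Tuft-3. The gene 1810046K07Rik went from 9.6 CPM to 133 CPM at Tuft-1, and Runx1, a RUNT factor of blood cells, from 56.2 CPM to 165 CPM. Foxe1 (0.1, 1.5, 14.2 and 31.4 CPM) and Etv1 (0.5, 5.7, 14.3 and 22.9 CPM) were highest in the later subtypes. Pou2af1, Runx3, Trib3 and Atoh1 did not exceed 2.6 CPM.

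Of 29 tuft effectors with at least 5 CPM, 1 (the calcium channel Itpr3) reached 50% of its maximum in progenitors, 14 in Tuft-1, 10 in Tuft-2 and 4 in Tuft-3. The late 4 were the cation channel Trpm5, the acetylcholine synthase Chat, Siglecf and the fatty acid receptor Ffar3. In mice with at least 10 cells, summed effectors were at 5626 to 6758 CPM in progenitors, 22081 to 25285 in Tuft-1 and 32258 to 36789 in Tuft-2. Mucin and ductal genes ran the other way, with 14162 to 20218 CPM in progenitors and 1867 to 2279 CPM in Tuft-1.

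Partners of Gfi1b were present throughout. Kdm1a was at 136 CPM in progenitors and 88.7 CPM in Tuft-3, Hdac2 at 87.5 and 43.5 CPM, and Hdac1 was higher at each step, from 58.7 to 185 CPM. Rcor2, another corepressor, was at 7.0 CPM in progenitors and 0.4 CPM in Tuft-3, and at 149 CPM in EEC-Progenitor cells. The paralog Pou2f1 stayed between 21.2 and 45.5 CPM, while Pou2f2, Gfi1, Spi1, Spic and Hmx1 were near or at 0.

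Because Spib and Gfi1b are also blood-cell genes, markers of these cells were summed beside them. The 10 B cell markers came to 0 to 22.1 CPM in Tuft-1, 15.2 to 27.7 CPM in Tuft-2 and 32.7 to 48.6 CPM in Tuft-3, below Spib itself in each of these subtypes. In progenitors they came to 0, 9.69, 42.1 and 6.63 CPM, beside Spib at 0, 28.1, 0 and 3.32 CPM. The 6 listed genes of plasmacytoid dendritic cells summed to 394, 356, 298 and 289 CPM in Tuft-1, above Spib in each mouse, and to 188 to 326 CPM in Tuft-2, below it. In Tuft-3 they summed to 567, 174, 199.6 and 198 CPM, above Spib in the first 2-week mouse. Most of this was Tcf4, at 278, 298, 199 and 279 CPM in Tuft-1, and Bst2, at 414 CPM in Tuft-3 of the first 2-week mouse. MucinDuctal cells also had both genes, with means of 118 and 87.5 CPM. Siglech, which defines plasmacytoid dendritic cells, was at 0, 9.21, 0 and 0 CPM in Tuft-1. Markers of red cells, megakaryocytes and mast cells came to 158 to 221 CPM in Tuft cells, above Gfi1b there (46.3 to 59.8 CPM), with Ppbp and Cpa3 among the genes at 0. Nearly all of this was Kit, a receptor also found in mast cells, at a mean of 183 CPM in Tuft cells, 169.8 CPM in EEC-Progenitor cells and 5.83 CPM in Acinar cells. General leukocyte genes were at 16.6 to 79.0 CPM in Tuft-1, 81.5 to 124 CPM in Tuft-2 and 159 to 445 CPM in Tuft-3. From Tuft-1 on they were higher at each step in every mouse. In progenitors they were at 97.2, 84.4, 47.3 and 79.6 CPM, above Tuft-1 in each mouse. Their part in the Spib and Gfi1b levels was not tested.

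The genes whose levels most resembled each factor were found over 32 profiles of subtype and mouse, among 10597 genes. For Pou2f3 these were the kinase Bmx (Pearson r = 0.973), the actin-binding Avil (0.971), Gng13, Hpgds and Pik3cg. Those for Gfi1b were Bcl2l14 (0.981), Ethe1, 1810046K07Rik, Ptgs1 and Aldh2, and those for Spib included Sh2d7 (0.978), Bmx, Strip2 and Alox5. Hmx2 had Alox5ap (0.977), Pik3r5, Hmx3 (0.966), Rgs13 and Nebl, and Hmx3 had Alox5ap (0.970), Bcl2l14, Hmx2, 1810046K07Rik and Aldh2. Among the 5 factors r ran from 0.907 (Pou2f3 with Hmx2) to 0.966 (Hmx2 with Hmx3). The profiles share mice and the tuft against non-tuft split, so r is a description.

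The study compared 4 with 2 weeks of caerulein, and this was tested with edgeR on counts summed per mouse, with Benjamini-Hochberg adjustment over all genes. Median depth of Tuft cells was 19652 and 20481 UMIs at 2 weeks and 14809 and 15805.5 at 4 weeks. The part of this difference in the changes with time was not tested. In Tuft cells Pou2f3 stood at 227 and 225 CPM at 2 weeks and 207 and 203 CPM at 4 weeks. Gfi1b stood at 53.3 and 46.3 against 54.1 and 59.8 CPM, Spib at 478 and 414 against 478 and 479 CPM, and Hmx3 at 281 and 263 against 308 and 338 CPM. For these 4 genes the times did not overlap, though for Spib and Gfi1b each by under 1 CPM. Both 4-week mice were lower for Pou2f3 and higher for the other genes. Among all genes tested, 17.3% had both 4-week mice below both 2-week mice and 18.2% had them above. Hmx2 overlapped, at 313 and 274 against 287 and 374 CPM.

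None of the 5 passed the test in Tuft cells, where edgeR called 0 of 10967 genes (0%), 739 genes had an unadjusted p under 0.05 and DESeq2 called 31. The log2 changes were −0.14 for Pou2f3 (SE 0.12, adjusted p = 0.935), 0.21 for Gfi1b (SE 0.15, adjusted p = 0.907), 0.10 for Spib (SE 0.14, adjusted p = 0.974), 0.17 for Hmx2 (SE 0.17, adjusted p = 0.937) and 0.25 for Hmx3 (SE 0.13, adjusted p = 0.821). Of 29 tuft effectors, 16 other regulators and 7 partners or paralogs tested, 0 were called in Tuft cells by edgeR.

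None of the 5 passed within the subtypes tested. In Tuft-2 cells edgeR called 0 of 8645 genes (0%), with 338 under 0.05 before adjustment and 0 called by DESeq2, and the 5 log2 changes ran from 0.00 to 0.27. Tuft-3 gave 11 calls of 9648 (0.114%), none among the 5, and 19 by DESeq2 of 5533 genes given an adjusted p (0.343%). There Gfi1b was 0.39 higher on the log2 scale (SE 0.18, unadjusted p = 0.0538, adjusted p = 0.749) and Pou2f3 fell short of the threshold too, at −0.24 (SE 0.15, adjusted p = 0.857). In Tuft-3 the same 4 genes did not overlap between times in the same directions, against 16.3% of genes below and 19.7% above. In Tuft-2 Pou2f3, Spib and Hmx2 overlapped between times. Gfi1b and Hmx3 did not, with both 4-week mice higher, against 16.1% of genes above and 16% below in Tuft-2. Of the effectors, Gng13 was called in Tuft-3, higher at 4 weeks (log2 1.82, SE 0.19, adjusted p = 0.00586). A test of the difference between Tuft-3 and Tuft-2 in the change with time, with mouse as a block, called 23 of 9787 genes (0.235%) and none of the 5, with Gfi1b at 0.32 (SE 0.23, adjusted p = 0.863) and Pou2f3 at −0.22 (SE 0.15, adjusted p = 0.856).

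**Figure D4:**
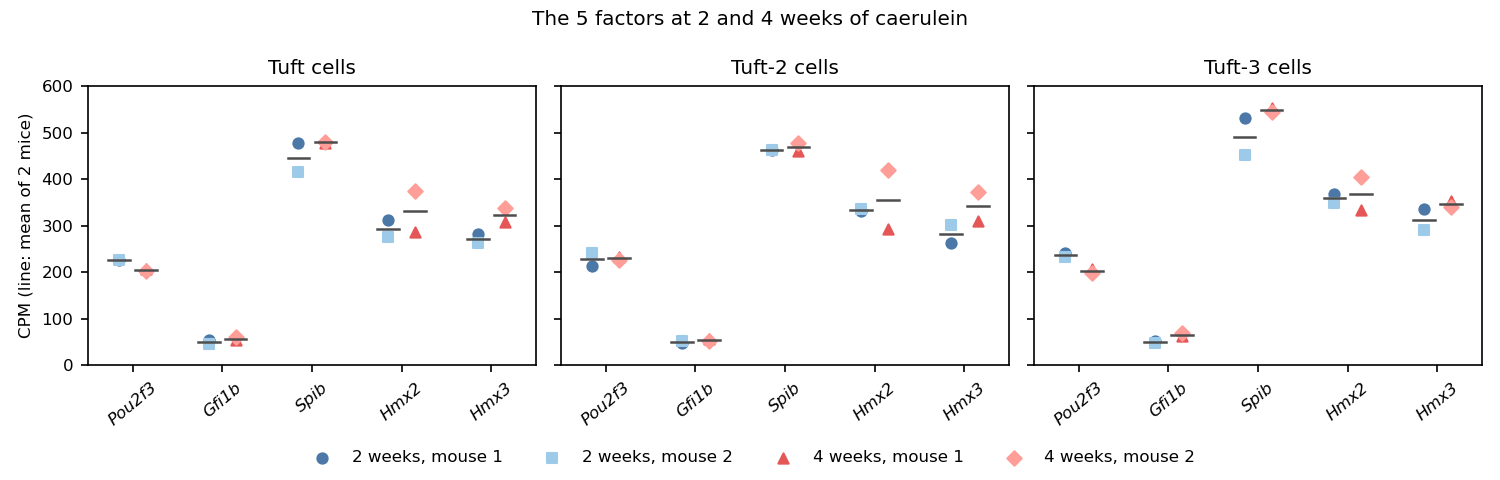
CPM of the 5 genes in Tuft, Tuft-2 and Tuft-3 cells (3 panels) for the 2 mice at 2 weeks and the 2 mice at 4 weeks, with lines at the mean of the 2 mice. Pou2f3 in Tuft cells is at 227 and 225 CPM at 2 weeks and 207 and 203 CPM at 4 weeks, and Spib in Tuft-3 runs from 452 to 552 CPM.

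Outside tuft cells, levels allowed few tests. In EEC cells edgeR called 0 of 11869 genes (0%) and DESeq2 called 13, while 478 genes (4.03%), Hmx2 among them, had an unadjusted p under 0.05 in edgeR. Hmx2 was the only member that passed the filter there, which it did through its 4-week counts, with 0, 5, 19 and 10 UMIs (0, 0.987, 5.00 and 2.80 CPM), a log2 change of 2.90 (SE 0.90, unadjusted p = 0.0140, adjusted p = 0.986). Over alternatives the log2 change ran from 2.11 to 6.93 and the edgeR adjusted p from 0.0461, with no filter on low counts, to 1.00. The value of 6.93 was without the second 2-week mouse and sets 2 mice against 1 with 0 UMIs, so it depends on the fit's prior count. With so few UMIs no change in Hmx2 is read from these fits. Of the UMIs, 7 and 1 at 4 weeks came from EEC cells with 3 or more factors, and 12 and 9 from the other cells. In MucinDuctal cells 0 of 13463 genes were called (0%), with 726 under 0.05 before adjustment and 40 called by DESeq2, and Pou2f3, at 1.04, 3.91, 1.06 and 0.986 CPM, had a log2 change of −1.22 (SE 0.65, adjusted p = 0.824). Its direction there rests on the second 2-week mouse, without which the change was 0.06. Change with time in MucinDuctalProgenitor and Tuft-1 was not tested, since a mouse had 5 and 6 cells. With 2 mice a group, only large changes can pass. The edgeR p-values set each change against a spread between mice that is estimated in part from the other genes.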

How the data were processed

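The authors deposited raw UMI counts and tables of cell types. Reads were processed with Cell Ranger 4.0.0 on mm10 and Seurat 3.2.3, per the submitters' processing notes. How the types were assigned is not given in the sources used here. Counts of the smaller tables equalled those of the merged table, and the library totals of typed cells were 60224505 to 90547790 UMIs.

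Counts were summed per mouse and type to give CPM, UMIs scaled to a common total. Means use mice with at least 10 cells. Shares were also computed after thinning to 2500 UMIs. Change with time was tested with edgeR 4.0.16 (quasi-likelihood, TMM, filterByExpr) in types with at least 20 cells in each mouse, at an adjusted p of 0.05, and with DESeq2 1.42.0 as an alternative (R 4.3.3). The SE given with an edgeR change is its absolute log2 change divided by the square root of the test's F statistic. It is thus derived from the test and not estimated apart from it. The test of change with time was also run on simulated counts for Tuft and Tuft-3. All genes there had the same dispersion, and the changes set in were larger than those of the 5 factors. This run therefore does not bear on changes of their size. Other alternatives were size factors, the filter, robust fitting, leaving out each mouse, the 5% of cells with most UMIs, and other thinning depths. No doublet caller was run, and whether doublets were removed before deposit is not given.

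The named genes were the 5 factors, the genes of fixed lists and the 5 genes most like each factor by Pearson r of log2(CPM + 1). The members and lists were chosen with earlier results of these data known. Some genes that these rules name are not reported here. Replicate numbers follow accession order and pair nothing. Coordinates are from GENCODE vM21, promoters from RefSeq (GRCm38.p6).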

Additional observations from a re-analysis of the deposited data

Results flagged for a closer look

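Cells of the merged table without a deposited type were not used in the report's comparisons, and 2 signals in them stood out. Among 7778 such cells, 743 had at least 3 of 10 B cell markers, with a median of 3647 UMIs. Spib in these was at 115 and 88.6 CPM in the 2-week mice and 46.9 and 61.3 CPM in the 4-week mice, and was found in 221 cells (29.7%, exact 95% interval 26.5 to 33.2%). By mouse it was found in 34.1% and 37.8% of them at 2 weeks and in 22.9% and 24.7% at 4 weeks, each outside that interval. Median depth of these cells was 3699 and 4215.5 UMIs at 2 weeks and 3568 and 3123.5 at 4 weeks. The other members were found in 1 to 5 of these cells, namely Pou2f3 in 5, Gfi1b in 2, Hmx2 in 5 and Hmx3 in 1. In the 5678 untyped cells with fewer than 3 B cell markers and fewer than 5 tuft effectors, with a median of 3573 UMIs, Spib was found in 1.48% (3.81 CPM). The interval pools the cells of all mice and covers counting error only, not the spread between mice.

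In all, 26 of the untyped cells, 1 of them among these 743, held 3 or more of the 5 factors, with 0, 12, 6 and 8 in the 4 mice. Of these, 3 had an EYFP UMI, as had 609 of the other 7752 untyped cells. All 13362 typed cells had an EYFP UMI, among them all 1215 typed Tuft cells with 3 or more factors. The typed cells were deposited as a set filtered for YFP+ cells, so this share follows from that filter. It is therefore no contrast with the untyped cells. Ptprc, the general leukocyte gene, was found in 9 of the 26, in 2623 of the other 7752, and in 524 of the 1215 typed Tuft cells with 3 or more factors. Their median depth was 10033 UMIs, and a median of 20.5 tuft effectors was detected in them.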

How the results depend on the processing

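Of 223 values of the change with time of single factors under alternatives, 206 kept their direction and side of the threshold and 15 reversed. The reversals came with leaving out 1 mouse, and over those choices the log2 changes ran from −0.00427 to 0.212 for Spib and −0.0498 to 0.369 for Hmx2 in Tuft, from −0.0714 to 0.0944 for Pou2f3, −0.0181 to 0.0619 for Spib and −0.205 to 0.347 for Hmx2 in Tuft-2, and from −0.142 to 0.177 for Hmx2 in Tuft-3. In MucinDuctal they ran from −1.77 to 0.0603 for Pou2f3, −1.57 to 0.0854 for Spib and −0.670 to 1.02 for Hmx2, each highest without the second 2-week mouse. In the difference between subtypes they ran from −0.164 to 0.0722 for Hmx2 and −0.325 to 0.0653 for Hmx3. Without the 5% of cells with most UMIs, the log2 step of Pou2f3 from Tuft-2 to Tuft-3 was 0.00395. For Hmx2 in EEC the log2 change ran from 2.11 to 6.93 and the adjusted p from 0.0461 to 1.00. The lowest p came with no filter on low counts, and without the second 2-week mouse it was 0.0490, against a lone mouse with 0 UMIs.

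Counts of called genes depended more on settings. DESeq2 called 31 in Tuft, 19 in Tuft-3, 13 in EEC, 40 in MucinDuctal and 1 in the difference between subtypes. With no filter edgeR called 266 in Tuft, 62 in Tuft-2, 187 in Tuft-3, 74 in EEC, 6 in MucinDuctal and 66 in that difference. Without robust fitting Tuft-3 had 5, and without the deepest cells Tuft-2 had 1, Tuft-3 had 7 and the difference had 37. Leaving out 1 mouse leaves an arm of 1, which is assumed to vary like the other group, so these counts are not comparable with those of all 4 mice. They were 5 to 273 in Tuft, 1 to 124 in Tuft-2, 3 to 303 in Tuft-3, 0 to 366 in EEC, 0 to 191 in MucinDuctal and 32 to 110 in the difference. The number of factors with onset in Tuft-1 was 3 to 4. It was 3 without the second 2-week mouse and 4 otherwise. Of 135 step ratios under alternatives 131 stayed within the spread between mice. Some of these could not move. The first 2-week mouse was already left out of progenitor and Tuft-1 means, and the progenitors typed Tuft enter only the first step. The spread was also wide for Spib from progenitors to Tuft-1, with an SD of 1.94 on the log2 scale. The count of 131 is therefore no measure of stability. Of 135 shares 102 moved with the thinning depth, on which a share depends by its definition. The Tuft-1 steps of Spib, Hmx2 and Hmx3 moved when 1 mouse was left out, to log2 7.26, 5.30 and 5.92. No paired analysis was possible because replicate numbers follow accession order and pair no 2-week with 4-week mouse. Tuft-2 and Tuft-3 of 1 mouse were paired, by the block on mouse.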
